A study of Mus musculus with 4 samples.

Results

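The genes examined are 9 genes of monocytes and macrophages: *Lyz2*, *Ly6c2*, *Csf1r*, *Adgre1*, *Fcgr1*, *Cd14*, *Mertk*, *Spic* and *C1qa*. They are named by symbol, by a rule that uses no measured value, and are 9 of the 40213 gene symbols in the deposited tables. The data are bulk RNA-seq of CD24+ emergency progenitors (EPs), a CD11c+CD117+ population of the spleen that holds both DC progenitors and differentiated cDCs, with 2 libraries from WT mice and 2 labelled TopBP1cKO, here written cKO. TopBP1 is a scaffold protein of DNA replication and of the checkpoint response to damaged DNA. The comparison asks how these genes stand in the EPs when *Topbp1* is to be deleted in CD11c-expressing cells.

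The WT mice were littermates with 2 floxed *Topbp1* alleles and no Cre (TopBP1 fl/fl), and the cKO mice carried the same alleles with CD11c-cre. All mice received 10 μg of Flt3L-Ig, a long-acting form of the growth factor that drives DC development, by the intraperitoneal route on days 0 and 3, and cells were sorted on day 9. By the study's methods the mice were young adults. The labels do not say whether a library comes from 1 mouse or several, so the spread between replicates may be technical in part. Cre under the CD11c promoter acts only in cells that have switched that promoter on, and CD11c is also expressed by some monocytes and macrophages.

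Monocytes leave the bone marrow and circulate as Ly6C-high and Ly6C-low cells, and both they and the tissue macrophages depend on the transcription factor PU.1 and, to differing degrees, on signals through the CSF-1 receptor. In the spleen, the red pulp macrophages clear aged erythrocytes and recycle their iron, and their identity depends on the transcription factor Spi-C. Monocytes and DCs share progenitors in the bone marrow, and the products of *Csf1r*, *Fcgr1*, *Mertk*, *Adgre1* and *Cd14* are widely used to tell monocytes and macrophages from conventional DCs.

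Promoter sequence was at hand for 5 of the 9 genes, *Lyz2*, *Ly6c2*, *Fcgr1*, *Mertk* and *Spic*, from RefSeq on GRCm38.p6, an older build than the GRCm39 of the authors' files. The 250 bases before the annotated start are shown for the pair of most abundant genes and for *Fcgr1*, because they carry or lack the core of the PU.1 site. Capitals mark GAGGAA on the strand shown, or its reverse complement TTCCTC. The windows lie on the minus strand at chr10:117282273-117282522 (*Lyz2*), chr15:75111972-75112221 (*Ly6c2*, the first of its annotated starts) and chr3:96293970-96294219 (*Fcgr1*), and read 5′ to 3′.
Lyz2: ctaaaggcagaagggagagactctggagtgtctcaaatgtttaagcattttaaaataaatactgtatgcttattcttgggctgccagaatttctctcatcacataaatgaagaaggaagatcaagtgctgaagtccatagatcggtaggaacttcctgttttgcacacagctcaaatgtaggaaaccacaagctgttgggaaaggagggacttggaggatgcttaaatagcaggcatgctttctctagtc
Ly6c2: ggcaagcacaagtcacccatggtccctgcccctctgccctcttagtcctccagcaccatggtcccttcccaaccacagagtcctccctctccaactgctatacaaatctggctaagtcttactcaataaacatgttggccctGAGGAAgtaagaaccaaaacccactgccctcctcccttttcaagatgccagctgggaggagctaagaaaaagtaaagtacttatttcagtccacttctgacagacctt
Fcgr1: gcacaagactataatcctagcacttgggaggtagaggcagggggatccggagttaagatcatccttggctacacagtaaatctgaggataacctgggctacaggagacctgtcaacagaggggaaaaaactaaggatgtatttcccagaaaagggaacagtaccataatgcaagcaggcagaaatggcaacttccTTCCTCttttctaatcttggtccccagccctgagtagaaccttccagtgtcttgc
The *Ly6c2* window holds 1 match, whose first base lies at -108 counted from the start. Its second window, at chr15:75111938-75112187, overlaps the first and holds 2, at -142 and at -8. The match at -142 is the same site as that at -108 in the first window. The *Fcgr1* window holds 1 match on the opposite strand at -55. The *Lyz2*, *Mertk* and *Spic* windows hold none, which says only that these letters are not in those windows. GAGGAA was found, on either strand, in 23.3% of 32851 RefSeq promoter windows of this length. The composite motif of PU.1 with an IRF partner, written as GGAA, any 2 bases and GAAA, whose first letters can overlap the core, was in 0 of the 6 windows of these genes and in 2.30% of all windows.

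The libraries held 14561583 and 15193831 counts in WT and 15148032 and 15093476 in cKO. The library labelled cKO replicate 2 stood apart, its chi-square against each other library being 38.7 to 47.6 for each degree of freedom, and 11.9 to 14.4 among the other 3. It also went against its label for *Topbp1*, which had 1102 and 1143 counts in WT, 773 in cKO replicate 1 and 1279 in cKO replicate 2. The log2 fold change of *Topbp1* was -0.20 (SE 0.21, FDR 0.774), and it was -0.61 without cKO replicate 2 and 0.11 without cKO replicate 1. The *Topbp1* counts are of all its transcripts and not of the deleted part alone. Differences are therefore given between libraries as labelled, and those of the members are also given without cKO replicate 2.

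None of the 9 genes passed the test between cKO and WT, tested in edgeR by quasi-likelihood, where FDR is the P value adjusted by Benjamini-Hochberg over the 12393 genes of the fit (threshold 0.05). Over all genes, 0.105% passed it. Of the 8 members that could be tested, 1, *Csf1r*, had an unadjusted P below 0.05, and it was higher in cKO, as were 6.95% of all genes at that P, whereas 3.77% were lower. The likelihood ratio test of edgeR, the Wald test of DESeq2 and limma-voom also called 0 members. In both cKO libraries 3 of the tested members, *Csf1r*, *Adgre1* and *Fcgr1*, lay above both WT libraries in CPM (counts scaled to a common library total by TMM), as did 22.8% of all genes, and 2, *Cd14* and *C1qa*, lay below both, as did 20.8% of all genes. *Mertk*, too low to be tested, also lay below, and *Lyz2*, *Ly6c2* and *Spic* overlapped between the groups. These are 37.5% and 25.0% of the 8 genes, where 1 gene is 12.5%, and nothing particular to the members is read from them. The median log2 fold change of the 8 members was 0.33, with 6 positive and 2 negative, and the median of all genes was 0.01. With 2 libraries against 2, an exact permutation test of a single gene cannot go below P = 0.333.

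**Figure D1:**
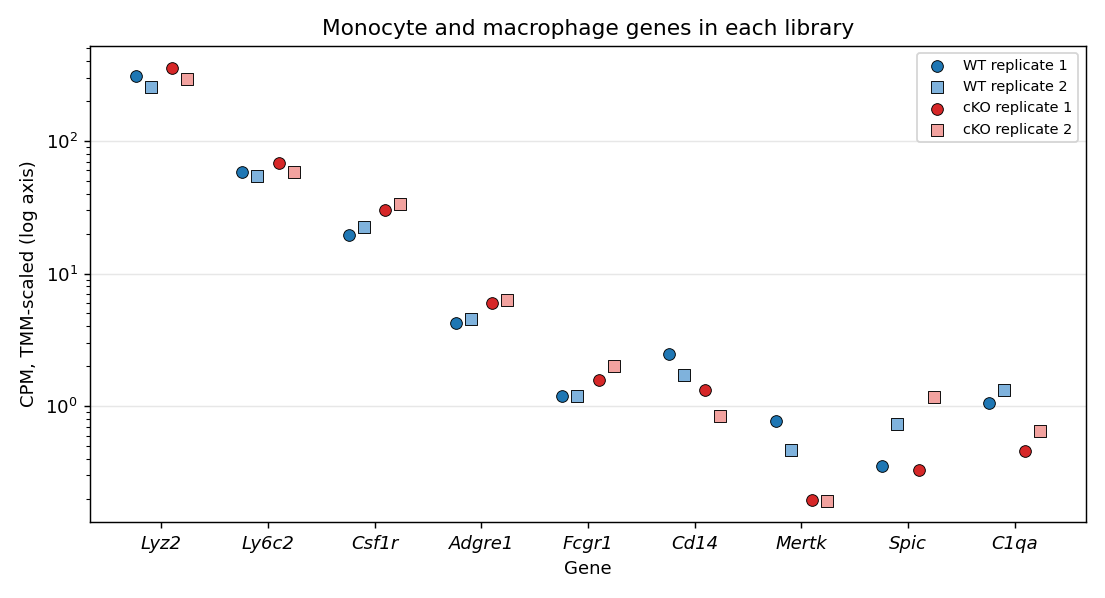
CPM of the 9 genes (log axis) in each of the 4 libraries, with circles for replicate 1 and squares for replicate 2, WT in blue and cKO in red. *Lyz2* stands between 257 and 358 CPM and *C1qa* no higher than 1.32 CPM, and the cKO points lie above WT for *Csf1r*, *Adgre1* and *Fcgr1* and below for *Cd14*, *Mertk* and *C1qa*.

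The members were a small part of each library. Their counts came to 5642 and 5199 in WT and to 7094 and 6136 in cKO, from 0.0342% to 0.0468% of all counts, and *Lyz2* alone made up 74.2% to 77.9% of them. Per length (mean CPM per kilobase of the gene's most abundant transcript with a length), the WT level was 216 for *Lyz2*, 68.6 for *Ly6c2* and 5.43 for *Csf1r*. It was 1.36 for *Adgre1*, 1.28 for *Cd14* and 1.15 for *C1qa*, where the WT libraries of *Cd14* overlap those of both its neighbours, and then 0.462 for *Fcgr1*, 0.307 for *Spic* and 0.144 for *Mertk*. On the same scale *Irf8*, the transcription factor of cDC1s, stood above them all at 870. Genes of the sort gate and of DC progenitors stood at 523 for *Cd24a*, above *Lyz2*, and at 194 for *Flt3*, 153 for *Itgax*, which encodes CD11c, and 91.2 for *Kit*, between *Lyz2* and *Ly6c2*. *Spi1*, which encodes PU.1, stood at 129, and the general phagocyte genes *Cd68* and *Tyrobp* stood at 142 and 190. Each member other than *Lyz2* and *Ly6c2* thus stood far below *Spi1*, *Cd68* and *Tyrobp*. These were chosen after their values were seen and do not stand for every gene that macrophages share with DC progenitors. A bulk library cannot tell a few cells with much of an RNA from many cells with little.

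*Lyz2* encodes lysozyme M, a secreted enzyme that cleaves the peptidoglycan of bacterial walls and is made by monocytes, macrophages and granulocytes. It had 4394 and 3887 counts in WT and 5448 and 4551 in cKO. WT replicate 1, at 310 CPM, lay above cKO replicate 2, at 294 CPM, so the groups overlapped. The log2 difference (cKO over WT) was 0.20 (SE 0.15, 95% interval -0.15 to 0.55, FDR 0.681), between 0.05 when cKO replicate 1 was left out and 0.34 when WT replicate 1 was, and 0.33 without cKO replicate 2. Of the 31-base sequences of its transcript, 32.8% also occur in *Lyz1*, the Paneth cell lysozyme that arose by duplication, so reads could be split between the pair. *Lyz1* had 217 and 241 counts in WT and 211 and 121 in cKO, a log2 difference of -0.53 (SE 0.27, FDR 0.542).

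*Ly6c2* encodes the surface protein that marks Ly6C-high monocytes and is also found on some progenitors and on pDCs. It had 830 and 819 counts in WT and 1040 and 895 in cKO. On the CPM scale WT replicate 1 (58.6) lay above cKO replicate 2 (57.9), and the groups overlapped by that small margin. Their log2 difference was 0.16 (SE 0.14, 95% interval -0.16 to 0.48, FDR 0.715), 0.27 without cKO replicate 2 and 0.04 without cKO replicate 1. The counts are spread over 9 transcripts, of which the most abundant held 61.9% to 74.2% in each library. With *Ly6c1*, its neighbour and near copy, the gene shares 21.4% of its 31-base sequences, but *Ly6c1* had 5 and 1 counts in WT and 1 and 4 in cKO.

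*Csf1r* encodes the tyrosine kinase receptor of CSF-1 and IL-34, on which monocytes and macrophages rely for survival and which is also present on DC progenitors. It had 275 and 342 counts in WT and 456 and 517 in cKO, or 21.0 ± 2.26 CPM against 31.7 ± 2.48 CPM (SD, 2 libraries each). Both cKO libraries lay above both WT libraries, cKO replicate 2 highest. Its log2 fold change was 0.59 (SE 0.16, 95% interval 0.22 to 0.96, unadjusted P = 0.00628, FDR 0.309), and it was 0.50 (FDR 0.112) without cKO replicate 2. Without cKO replicate 1 it was 0.67 (FDR 0.00382), the only setting in which a member passed, in a fit that called 2625 genes. *Hmgxb3* overlaps *Csf1r* on the opposite strand and the use of strand in the counting is not stated, so reads of the 2 may not be told apart; *Hmgxb3* had 424 and 313 counts in WT and 433 and 456 in cKO, a log2 fold change of 0.19.

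*Adgre1* encodes F4/80, the adhesion receptor by which mouse macrophages are most often recognised. It had 60 and 69 counts in WT and 91 and 98 in cKO, with cKO above WT in each pairing. This was a log2 difference of 0.48 (SE 0.26, 95% interval -0.11 to 1.08, FDR 0.555), and 0.43 without cKO replicate 2. All counts fell on 1 of its 5 transcripts.

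*Fcgr1* encodes CD64, the high-affinity receptor for IgG, which separates monocyte-derived cells and macrophages from DCs. It had 17 and 18 counts in WT and 24 and 31 in cKO, above WT in both. On the log2 scale the difference was 0.58 (SE 0.42, 95% interval -0.39 to 1.55, FDR 0.665), with 0.39 without cKO replicate 2 and 0.74 without cKO replicate 1. The interval takes in no difference as well as a change larger than that of *Csf1r*.

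*Cd14* encodes the co-receptor that hands LPS to TLR4 and is abundant on classical monocytes. It had 35 and 26 counts in WT and 20 and 13 in cKO, lower in both cKO libraries than in either WT library. The log2 difference was -0.95 (SE 0.46, 95% interval -2.01 to 0.11, FDR 0.509), -0.68 without cKO replicate 2 and -1.31 without cKO replicate 1. *Cd14* thus stood on the other side of 0 from *Csf1r*, *Adgre1* and *Fcgr1*, but neither it nor they passed the test.

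*Mertk* encodes a receptor of the TAM family that lets macrophages take up dying cells and is a core macrophage gene. It had 11 and 7 counts in WT and 3 and 3 in cKO, the fewest of the 9 genes over the libraries together, and it failed the filter on low counts. The ratio of summed counts, scaled for library size, was 0.318 (95% exact binomial interval 0.103 to 0.836), and this interval covers counting error only, not the spread between mice. In the fit with no filter the log2 fold change was -1.63 (SE 0.82, FDR 0.729). It was -1.62 without cKO replicate 2, where *Mertk* passed the filter only because of the WT counts. The counts fell on 2 of its 3 transcripts, and an antisense gene, *Gm14011*, overlaps it.

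*C1qa* encodes the A chain of C1q, which starts the classical complement pathway and is made largely by tissue macrophages. It had 15 and 20 counts in WT and 7 and 10 in cKO, lower in both cKO libraries, and it could be tested because of the WT counts. The log2 fold change was -1.10 (SE 0.51, 95% interval -2.29 to 0.10, FDR 0.502) and -1.37 without cKO replicate 2, and the count ratio was 0.463 (95% interval 0.243 to 0.849, counting error only). The B chain gene, *C1qb*, had 16 and 23 counts in WT and 3 and 7 in cKO, a log2 difference of -2.00 (SE 0.60, FDR 0.346), and -2.71 without cKO replicate 2, and it too could be tested only because of the WT counts. The C chain gene, *C1qc*, had 7 and 19 counts in WT and 8 and 5 in cKO and was not tested. *C1qa* and *C1qb* lay below WT in both cKO libraries, as did 20.8% of all genes, and *C1qc* overlapped.

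*Spic* encodes Spi-C, the PU.1-related factor that red pulp macrophages need. It had 5 and 11 counts in WT and 5 and 18 in cKO, so that the replicates of a group differed more than the groups did. The fitted log2 difference was 0.45 (SE 0.74, 95% interval -1.27 to 2.17, FDR 0.868), and it turned to -0.72 without cKO replicate 2 and was 1.08 without cKO replicate 1. No direction can be read for *Spic* at this depth.

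**Figure D2:**
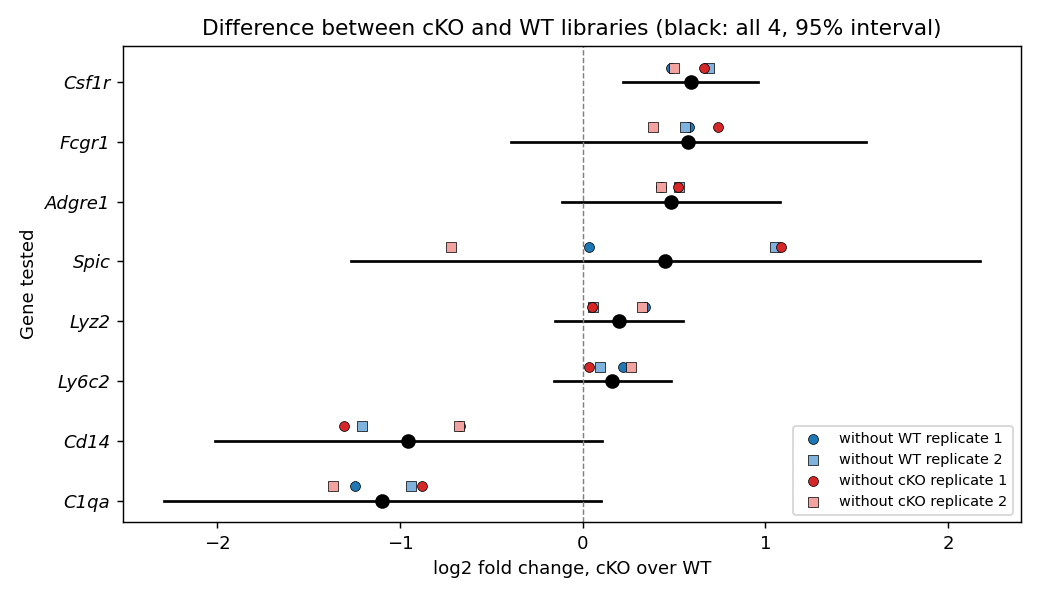
Log2 fold change of the 8 members tested (black points, all 4 libraries; lines, 95% intervals), with the value when 1 library was left out as coloured points above each. The interval of *Csf1r* (0.22 to 0.96) is the one that lies wholly on 1 side of 0, *Spic* runs from -0.72 to 1.08 as libraries are left out, and *Cd14* and *C1qa* stay below 0.

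By their pattern over the 4 libraries, the genes nearest to *Lyz2*, the most abundant member, were *Dstn*, *Lamp1* and *Ctsh*, at a root mean square distance of 0.0714, 0.0766 and 0.0793 in log2 CPM, among 2704 genes of like abundance. For *Spic*, the member with the widest range, they were *Gm46058*, *Gm41498* and *Klra3*, at 0.0363, 0.0859 and 0.132 among 1797. Within a distance of 0.1 there were 7 genes for *Lyz2* and 2 for *Spic*.

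Around the members, 9 lists of related genes hold 132 genes, of which 116 were tested. By the quasi-likelihood test of edgeR 0 of them passed FDR in either direction, and the smallest FDR was 0.0990, for *Fgr*. At an unadjusted P below 0.05, 11 were higher (9.48%, against 6.95% of all genes) and 9 lower (7.76%, against 3.77%). Both cKO libraries lay above WT for 31 (26.7%, against 22.8%) and below for 33 (28.4%, against 20.8%), and the median was 0.01. The Wald test of DESeq2 called 5, all higher, *C3*, *Fgr*, *Itgam*, *S100a4* and *Sirpa*, the likelihood ratio test of edgeR called these with *Dok2* higher and *Maf* lower, and limma-voom called 0. Over all genes these tests called 137, 234 and 13. Without cKO replicate 2 the quasi-likelihood test called 9 of the list genes, among them the same 5, and 223 of all genes. Without cKO replicate 1 it called 38, 15 higher and 23 lower, and 2625 of all genes.

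Among 20 other surface and adhesion genes of monocytes, 19 were tested, with a median log2 fold change of 0.04. *Itgam*, which encodes the CD11b chain of complement receptor 3, had 305 and 253 counts in WT and 672 and 1201 in cKO, a log2 difference of 1.67 (SE 0.27, FDR 0.153), or 0.77 (FDR 0.935) on its most abundant transcript alone. *S100a4*, a calcium-binding protein of motile cells, had 382 and 407 counts in WT and 720 and 688 in cKO, a log2 difference of 0.77 (SE 0.13, FDR 0.196). *Treml4*, a receptor of Ly6C-low monocytes, of red pulp macrophages and of CD8+ DCs, had 1837 and 1801 counts in WT and 1430 and 979 in cKO, at -0.66 (SE 0.19, FDR 0.336). *Cx3cr1*, the fractalkine receptor, stood at 0.60 (SE 0.23, FDR 0.434). Of the 19 genes, 12 were positive and 7 negative.

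Of 20 transcription factors of the lineage, 17 were tested, 11 with a negative and 6 with a positive log2 fold change (median -0.20). *Maf*, which encodes c-Maf, a factor of mature macrophages, had 79 and 71 counts in WT and 33 and 29 in cKO, a log2 difference of -1.34 (SE 0.31, FDR 0.307). *Klf2*, a factor of quiescence in several leukocytes, had 1736 and 2011 counts in WT and 1490 and 952 in cKO, at -0.68 (SE 0.21, FDR 0.346).

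In the list of CSF-1 receptor partners and related cytokine receptors, 14 of 15 genes were tested, with 3 higher (21.4%, against 6.95% of all genes) and 0 lower at an unadjusted P below 0.05 and a median of 0.05. *Sirpa*, the inhibitory receptor for CD47 carried by macrophages and cDC2s, had 359 and 484 counts in WT and 787 and 986 in cKO. The log2 difference was 1.01 (SE 0.17, FDR 0.182), or 0.59 (FDR 0.9999) on its most abundant transcript alone. *Dok2*, an adaptor that damps signalling by tyrosine kinases, had 6 and 11 counts in WT and 34 and 34 in cKO, at 1.92 (SE 0.47, FDR 0.307). This gene, 1 of the 3 higher, could be tested only because of the cKO counts. *Csf3r*, the receptor of G-CSF, had 174 and 176 counts in WT and 323 and 282 in cKO, at 0.72 (SE 0.18, FDR 0.307). On its most abundant transcript alone *Csf3r* stood at 1.64 (FDR 0.9999). *Il34*, a ligand of the receptor, was at 0 in every library.

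Of 15 genes of the TAM receptors, their ligands and dead-cell clearance, 12 were tested, 7 positive and 5 negative. At an unadjusted P below 0.05, 1 was lower (8.33%, against 3.77% of all genes) and 0 were higher (against 6.95%). The lower gene was *Cd36*, a scavenger receptor, at -0.28 (SE 0.12, FDR 0.464). Of 14 complement genes, 11 were tested, 8 positive and 3 negative, with the largest median of the 9 lists, 0.38. They ran in both directions: *C3*, the central component, had 575 and 540 counts in WT and 1054 and 939 in cKO (log2 fold change 0.77, SE 0.14, FDR 0.232), whereas *C1qb* was the lowest of the list. *Cfp*, which encodes properdin and is made by myeloid cells, had 313 and 447 counts in WT and 530 and 934 in cKO (0.88, SE 0.27, FDR 0.347).

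All 11 genes of Fc receptors and their kinases were tested, 7 positive and 4 negative (median 0.05). *Fgr*, a kinase of the Src family in myeloid cells, had 398 and 519 counts in WT and 934 and 1021 in cKO, a log2 difference of 1.03 (SE 0.15, FDR 0.0990). *Fcgr2b*, the inhibitory IgG receptor, had 615 and 734 counts in WT and 1361 and 793 in cKO, highest in cKO replicate 1. Its log2 difference was 0.61 (SE 0.24, FDR 0.439), 0.15 without cKO replicate 1 and 0.95 without cKO replicate 2. *Trim21* went the other way, with 861 and 1014 counts in WT and 771 and 792 in cKO, at -0.33 (SE 0.13, FDR 0.418). All 12 genes of LPS sensing around CD14 were tested, with 6 on each side of 0. In either direction 0 had an unadjusted P below 0.05, where 6.95% of all genes were higher and 3.77% lower.

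Red pulp macrophage and iron genes lay mostly below 0. Of 16, 11 were tested, 9 with a negative and 2 with a positive log2 fold change (median -0.21), and 0 passed. Both cKO libraries lay below WT for 6 (54.5%, against 20.8% of all genes) and above for 1 (9.09%, against 22.8%). At an unadjusted P below 0.05, 3 were lower (27.3%, against 3.77%) and 0 higher (against 6.95%). The median was -0.16 without cKO replicate 2 and -0.43 without cKO replicate 1. *Mrc1*, the mannose receptor, had 37 and 40 counts in WT and 11 and 20 in cKO, a log2 difference of -1.38 (SE 0.44, FDR 0.353). *Hmox1*, the enzyme that breaks down haem, had 173 and 223 counts in WT and 114 and 152 in cKO, at -0.64 (SE 0.23, FDR 0.384). Other genes of the list were counted in every library: *Vcam1*, an adhesion molecule of red pulp macrophages and stroma, had 139 and 124 counts in WT and 109 and 100 in cKO, and *Cd163*, the haemoglobin scavenger receptor, had 64 and 63 in WT and 72 and 26 in cKO. *Slc40a1*, the iron exporter, had 57 and 55 in WT and 69 and 56 in cKO. Some were at or near 0: *Marco* had 1 count in 1 WT library, *Clec4f* had 0 in every library, *Siglec1* had 8 and 9 counts in WT and 0 and 6 in cKO, and *Cd5l* had 5 and 14 in WT and 5 and 7 in cKO. *Vsig4*, the complement receptor of resident macrophages, was also at 0 in every library. Of 13 lysosomal genes, 12 were tested, 9 negative and 3 positive (median -0.12), with *Npc2*, a cholesterol carrier, at -0.58 (SE 0.23, FDR 0.447).

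**Figure D3:**
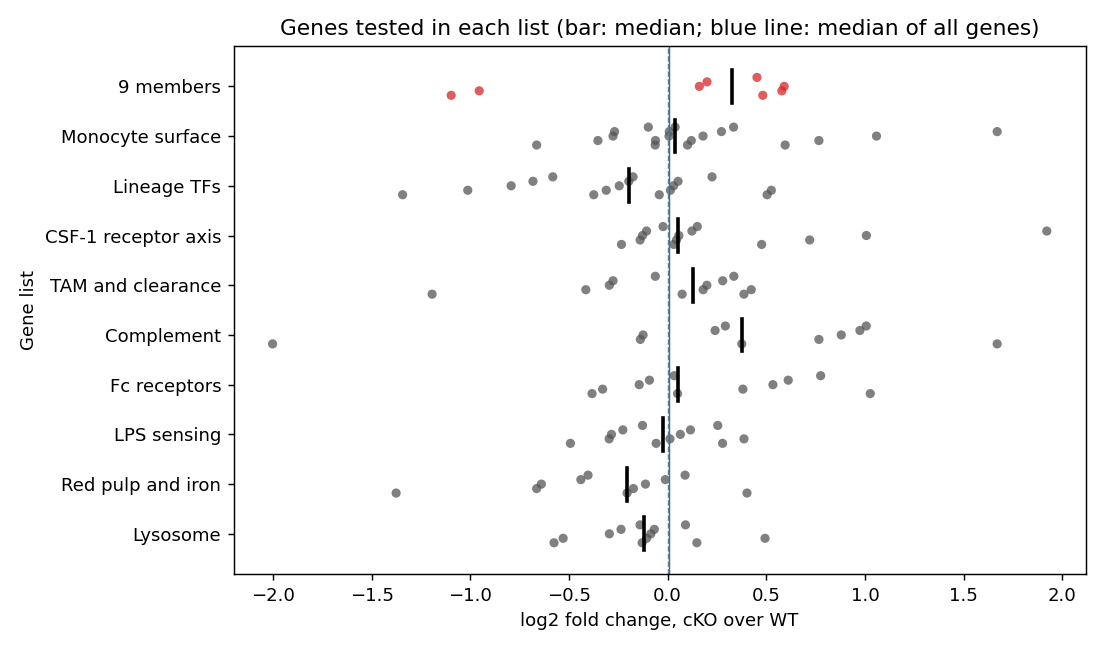
Log2 fold change of each gene tested (points) in the 9 members and in the 9 lists around them, with the list's median as a black bar and the median of all genes as a blue line. The medians lie between -0.21 (red pulp and iron) and 0.38 (complement), and each list has genes on both sides of 0.

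Markers of other myeloid cells differed between the same libraries. The summed level of 14 neutrophil genes was 1252 to 1505 CPM in WT and 2508 to 3240 CPM in cKO. Of them 13 had a positive log2 fold change (median 1.45) and 6 rose at FDR below 0.05, where 0.105% of all genes passed. Among the 6 were *Ltf* (1.69), *Lcn2* (1.79), *S100a8* (1.53) and *Ngp* (1.48), which encode granule and cytosolic proteins. The sum of 10 cDC2 genes, which include *Sirpa* and *Itgam*, was 282 to 298 CPM in WT and 382 to 389 CPM in cKO. All 9 tested were positive, but 0 passed FDR (smallest 0.153). *Itgam* stood at 21.6 and 16.7 CPM in WT and 44.1 and 77.7 in cKO. *Sirpa* stood at 25.4 and 32.0 CPM in WT and 51.7 and 63.8 in cKO. With both genes taken out, the cDC2 sum in cKO replicate 2 falls just below that in WT replicate 2. The groups then overlap, so the separation of the sums rests on these genes. The sum of the sort gate and DC progenitor genes was 12501 to 13009 CPM in WT and 9696 to 12165 CPM in cKO, lowest in cKO replicate 2. Most of it was the MHC class II gene *H2-Ab1* (6382 to 9312 CPM), and without it the sum was 3697 to 3752 CPM in WT and 3314 to 3474 CPM in cKO. The 9 members themselves came to 344 to 399 CPM in WT and 397 to 466 CPM in cKO, which overlap. Neutrophils and cDC2s share *Lyz2*, *Itgam*, *Csf3r*, *Fgr* or *Sirpa* with monocytes, and their part in the values given here was not tested.

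**Figure D4:**
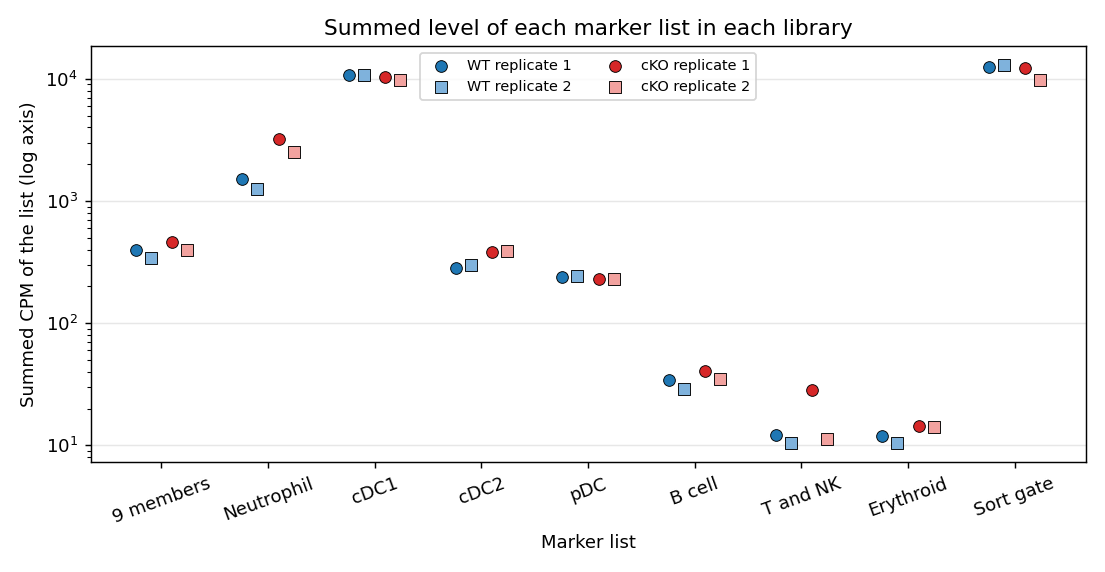
Summed CPM (log axis) of the 9 members and of each list of cell type markers in the 4 libraries. The neutrophil sum is higher in both cKO libraries (2508 and 3240) than in WT (1252 and 1505), whereas the sum of the 9 members overlaps between the groups.

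The remaining lists are given for the other cells the sort could hold. Their sum was 10700 to 10704 CPM in WT and 9759 to 10444 CPM in cKO for 10 cDC1 genes, and 238 to 242 against 229 to 230 CPM for 9 pDC genes. Of 8 pDC genes tested, 3 were higher (37.5%, against 6.95% of all genes) and 2 lower (25.0%, against 3.77%) at an unadjusted P below 0.05. *Cox6a2* rose, from 0 and 3 counts in WT to 183 and 168 in cKO (FDR 0.00762). It could be tested only because of the cKO counts, and its count ratio was 112 (95% interval 37.9 to 544, counting error only). The log2 fold change was 0.81 for *Spib* (FDR 0.337), 0.39 for *Runx2* (FDR 0.391) and -0.33 for *Tcf4* (FDR 0.389). B cell genes summed to 28.9 to 34.1 CPM in WT and 34.9 to 40.4 CPM in cKO, erythroid genes to 10.4 to 11.9 and 14.1 to 14.4 CPM, and T and NK cell genes to 10.4 to 12.1 and 11.2 to 28.5 CPM, highest in cKO replicate 1. Of these lists of cell types the cDC1 genes had the highest sum in every library. Of the 9 members, *Fcgr1*, *Mertk*, *Spic* and *C1qa* lay at 2.00 CPM or below in every library. *Cd14* stood at 0.841 to 2.47 CPM, *Adgre1* at 4.24 to 6.34 and *Csf1r* at 19.4 to 33.4. *Ly6c2* stood at 54.2 to 68.3 CPM and *Lyz2* at 257 to 358.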

How the data were processed

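RNA of sorted CD24+ EPs was sequenced in 2 WT and 2 cKO libraries (CORALL RNA-seq V2 kit). The authors deposited whole-number counts for each transcript, with its RefSeq accession and symbol and no scaling seen in the values; whether they are rounded estimates is not stated, which bears on values of single transcripts. The submitters' processing notes name fastp, STAR, Salmon, GATK and GRCm39 without versions, and the use of strand or of molecular identifiers is not given in the sources used here. Counts were summed per symbol, and 19815 genes had a count. In edgeR 4.0.16 (R 4.3.3), 12393 genes passed filterByExpr and were tested by quasi-likelihood after TMM scaling, and P values were adjusted over them by Benjamini-Hochberg. CPM used TMM library sizes. Alternatives used DESeq2 1.42.0 and limma 3.58.1, other scalings and filters, thinned counts, single transcripts, a replicate block, and each library left out. The tests were tested on simulated data.

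The members, gene lists and tests were chosen with earlier results of these data known. All 9 members were named, with up to 4 genes of a list by FDR, then those of smallest P, or otherwise the most abundant. Genes named outside this rule (*C1qc*, *Siglec1*, *Cd5l*, *Marco*, *Vcam1*, *Cd163*, *Slc40a1*, *H2-Ab1*, *Il34*, *Vsig4*, *Clec4f*, *Lyz1*, *Ly6c1*, *Hmgxb3* and the genes given for their level per length) were chosen after their values were seen. Lengths came from GENCODE M21 transcripts paired with RefSeq. Intervals of count ratios cover counting error only, since they are taken on summed counts and leave out the spread between libraries. Reads are not independent molecules, so even for counting error they may be too narrow.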

Additional observations from a re-analysis of the deposited data

How the results depend on the processing

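The members called stayed at 0 under each alternative except leaving out 1 library (0 to 1). Against 13 genes called over the whole table, the DESeq2 Wald test called 137, the likelihood ratio test 234 and the replicate block 504, and leaving out 1 library gave 1 to 2625. For the wider lists (0 called) these gave 5, 7, 13 and 0 to 38. The paired fit was not taken as firmer. Deviations of same-numbered libraries had a correlation of -0.0460, and the labels name no pairing beyond the number. Whether same-numbered libraries share a batch was not tested. The median of the members (0.33) was 0.23 under limma-voom. Where *Mertk* was tested, the median over all 9 was 0.19 with no filter, 0.09 without WT replicate 2, 0.05 without cKO replicate 1 and 0.27 without cKO replicate 2. Leaving out 1 library turned *Spic* (-0.72 to 1.08) and *Topbp1* (-0.61 to 0.11). The causes were not tested. With 1 library left in a group, it is assumed to vary like the other group. Depth limits *Mertk*, *Spic*, *C1qa*, *Fcgr1* and *Cd14*, each with at most 35 counts in a library.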
